A study of Homo sapiens with 2 samples.

Results

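The 7 entries miR-4792, miR-6087, miR-4516, miR-663a, miR-4492, miR-4449 and miR-3195 were examined among the 2038 mature miRNA names listed for 2 small RNA libraries. They were picked by name, as miRNA entries of doubtful hairpin origin with a high sphere over parental RPKM, and all 7 were found in both libraries. RPKM stands for reads per kilobase of sequence and per 1000000 reads. The sphere over parental ratio therefore chose them, and their folds below are a description with no test. Both libraries came from FaDu (FadU in the labels), a head and neck squamous cell carcinoma line. The parental group grew in serum (10%) on RPMI-1640. The sphere group grew in DMEM-F12 containing EGF, bFGF (each at 10 ng/ml) and N2 Plus, with no serum named, and both media held penicillin and streptomycin. The labels describe the sphere cells as sphere-derived cancer stem cells. Each group was 1 library, so no value has a replicate check, and medium, serum and growth form cannot be told apart as sources of a difference.

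A canonical miRNA is cut from one side of an RNA hairpin by the nucleases Drosha and Dicer and is loaded into an Argonaute protein, which it guides to messenger RNAs through its seed, bases 2 to 8. The opposite side of the hairpin usually leaves a less abundant partner, so that small RNA reads pile up on both arms. Many entries with high numbers were added to miRNA catalogues from sequencing reads alone, and a number of them have been questioned because such reads can also be fragments of ribosomal RNA, transfer RNA or other transcripts. miR-663a is the exception in numbering here, while the other 6 entries are numbered above 3000.

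RefSeq (GRCh38.p14) held the mature sequence of 4 of the 7 entries, miR-4516, miR-663a, miR-4492 and miR-4449. They are shown for their base composition, which lies at the edge of the measured miRNAs, with the seed in capitals.
miR-4516: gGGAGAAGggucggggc
miR-663a: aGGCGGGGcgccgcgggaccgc
miR-4492: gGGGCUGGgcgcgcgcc
miR-4449: cGUCCCGGggcugcgcgaggca
No seed was shared among the 4. The GC content was 76.5% for miR-4516, 81.8% for miR-4449, 90.9% for miR-663a and 94.1% for miR-4492, against a median of 47.8% over the 213 other measured miRNAs with a sequence. None of these 213 had a GC content as high as miR-663a or miR-4492. Only 1 reached that of miR-4449 and 2 that of miR-4516. G alone made up 64.7% of miR-4516, 58.8% of miR-4492, 54.5% of miR-663a and 45.5% of miR-4449, against a median of 23.8%. miR-4516 and miR-4492 were 17 nt long, shorter than each of the 213, while miR-663a and miR-4449 had the median length of 22 nt. With a sequence for 4 of 7 entries (57.1%), a statement on base composition over the whole set is void.

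RefSeq held the hairpins of MIR4516, MIR4449, MIR3195 and MIR4492, and 3 are shown to give the place of the mature sequence. Capitals mark the mature sequence, and MIR3195 is given in lower case throughout.
MIR4516: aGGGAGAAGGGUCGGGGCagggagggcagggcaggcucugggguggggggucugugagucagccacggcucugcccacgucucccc
MIR4449: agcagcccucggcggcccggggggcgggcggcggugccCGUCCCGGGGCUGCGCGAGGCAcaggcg
MIR3195: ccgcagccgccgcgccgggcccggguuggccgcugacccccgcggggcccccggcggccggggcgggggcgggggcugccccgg
All 4 precursors gave a predicted structure (RNAfold) with 1 loop, as did 151 of 154 other measured hairpins (98.1%). The predicted free energy per base was -0.72 kcal/mol for MIR4449 and -0.70 for MIR3195, and 3 of the 154 other hairpins were more negative. MIR4516 had -0.51 and MIR4492 -0.47, nearer to the median of -0.45. The GC content of the hairpin was 92.9% (MIR3195), 86.4% (MIR4449), 76.2% (MIR4492) and 72.1% (MIR4516), with a median of 50.8% among the others. A GC-rich hairpin folds more stably whatever its sequence order, so the energies are not independent of the composition. In the predicted folds 88.2% of the mature bases of miR-4516 and miR-4492 and 81.8% of those of miR-4449 were paired, around the median of 85.7% over 194 other mature sequences. The predicted folds of the entries thus lay within the range of other miRNAs (-0.91 to -0.24 per base).

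miR-4792 was the most abundant of the 7. Its RPKM was 1985 (parental) and 15730 (spheres). Rescaled so that each column sums to 1000000 ("rescaled RPKM"), it went from 74.8 to 2855, from rank 134 to rank 35 among all names. miR-6087 had an RPKM of 957 (parental) and 3763 (spheres), and its rank went from 173 to 67. These are the 2 entries that were above 10 rescaled RPKM in both libraries. The most abundant names for scale were let-7a-5p in the parental library, at 243075 rescaled, and miR-21-5p in the sphere library, at 258655.

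The other 5 entries were scarce in parental cells. miR-4449 had an RPKM of 70.1 (parental) and 371 (spheres). miR-3195 had 42.3 and 158 RPKM. miR-4516 had 18.6 and 251 RPKM. Each of the 5 was below 10 rescaled RPKM in parental cells (0.26 to 2.64) and above it in spheres (22 to 67.4). The RPKM of miR-4492 was 9.91 and 121, and that of miR-663a was 6.81 and 133. Their ranks moved from between 370 and 661 to between 140 and 207.

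**Figure D1:**
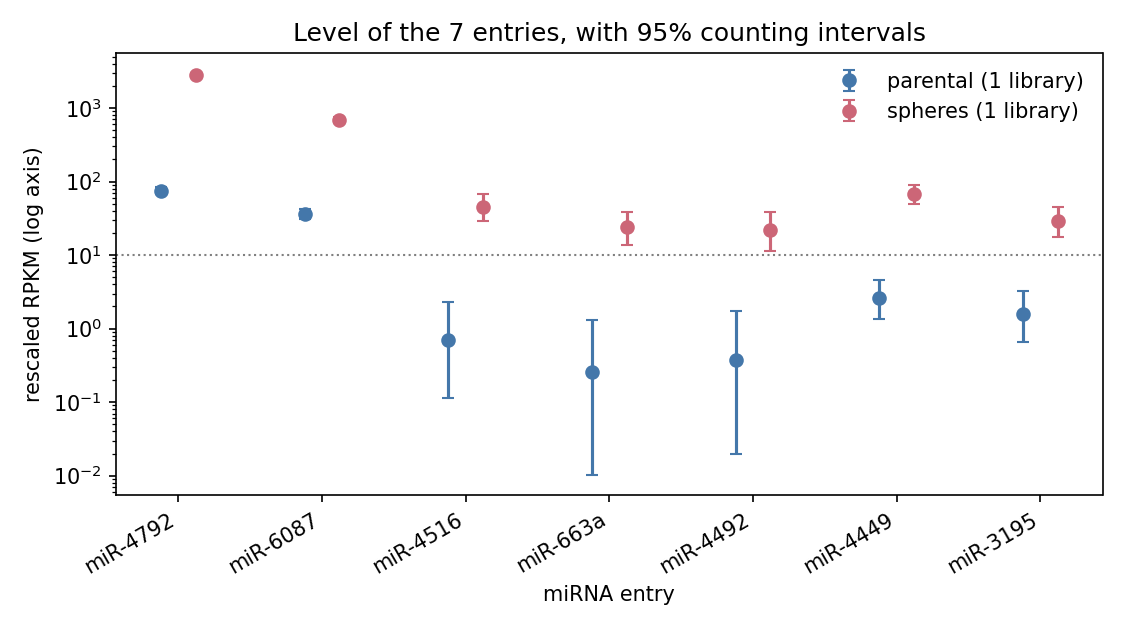
Rescaled RPKM (log axis) of the 7 entries in the parental and the sphere library, 1 library each, with 95% Poisson intervals of the estimated reads as bars and the level of 10 counted as measured as a dotted line. All 7 lie higher in spheres, and 5 lie under the dotted line in parental cells.

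Few reads stood behind the parental values. The commonest value above 0, taken as 1 read on a 22 nt sequence, was 5.84 (parental) or 8.07 RPKM (spheres). The value of 1 read on 20 to 24 nt was listed for 83 names (parental) and 85 names (spheres). RefSeq gave a length for 73 and 65 of them, and it was the matching one for 72 and 65. On this basis miR-4449 had 12 reads in parental cells and 46 in spheres, whole numbers in both, as for 17 of the 213 other measured names (within 0.02 reads). Whole numbers are not rare at low depth. Of names with 1 to 30 reads, 212 of 388 (54.6%, parental) and 151 of 281 (53.7%, spheres) were whole, within 0.001 of the value. miR-4516 had 2.46 and 24 reads, miR-4492 1.31 and 11.6, and miR-663a 1.17 and 16.4. These 3 include fractions of a read, and the counting of reads that match several places is not stated. Taken as 22 nt long, miR-4792 had 340 and 1948 reads, miR-6087 164 and 466, and miR-3195 7.25 and 19.6. At 17 nt these would be 263 and 1505, 127 and 360, and 5.60 and 15.2. Intervals cover counting error only, since amplified copies of a molecule are not independent.

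All 7 entries were at least 2-fold higher in spheres in rescaled RPKM, where 62 of 269 measured miRNAs (23%) were and 51 (19%) were at least 2-fold lower. Measured means a rescaled RPKM whose mean of both libraries is 10 or more, a level that 5 of the 7 reached only through the sphere library, so that they had to differ. In log2, with 0.5 rescaled RPKM added to both values, the folds of the 7 ran from 3.80 to 5.26 with a median of 4.69, against a median of 0.02 over all 269. They held ranks 3 to 12 of the 269 folds. miR-4792 was 38.2-fold higher (95% counting interval 34 to 43) and miR-6087 18.9-fold (15.8 to 22.8), the 2 narrowest intervals. miR-4449 was 25.5-fold higher (13.3 to 52.9) and miR-3195 18-fold (7.37 to 49.7). With fewer than 3 parental reads, the ratios were 65 (18 to 423) for miR-4516, 58.9 (10.3 to 1211) for miR-4492 and 93.7 (16.2 to 2513) for miR-663a. The whole interval lay beyond 2-fold for all 7 entries, and for 45 of the 269 (16.7%), and nothing is read from this since the same contrast chose the entries.

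The entries were also higher on the deposited RPKM scale. There all 7 were at least 2-fold higher, where 17 of the 269 measured miRNAs were (6.32%) and 214 (79.6%) were at least 2-fold lower, and the rule drew on this same ratio. The median log2 fold of the 7 was 2.99, against -2.25 over all measured miRNAs. The ratio was 7.93 (7.06 to 8.92) for miR-4792, 3.93 (3.28 to 4.73) for miR-6087, 5.30 (2.76 to 11) for miR-4449 and 3.74 (1.53 to 10.3) for miR-3195. It was 13.5 (3.73 to 87.9) for miR-4516, 12.2 (2.14 to 251) for miR-4492 and 19.5 (3.35 to 522) for miR-663a. The whole interval lay beyond 2-fold for 6 entries, all but miR-3195, and for 11 of the 269 (4.09%). Beside these values, miRNAs took an estimated 58.5% of the reads behind the RPKM in parental cells and 12.1% in spheres. The part of this difference in the folds of the 7 entries was not tested.

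**Figure D2:**
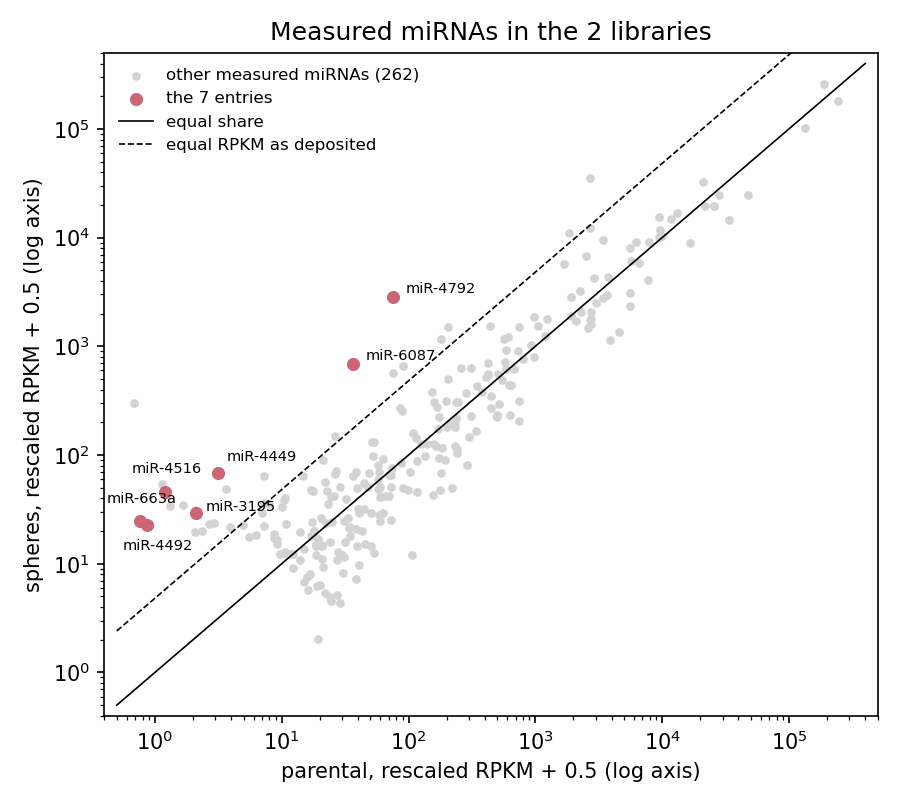
Rescaled RPKM plus 0.5 in spheres against parental cells (both log axes) for the 269 measured miRNAs, with the 7 entries in red, a solid line for an equal share of miRNA and a dashed line for equal RPKM as deposited. The 7 entries lie above both lines, with miR-4792 and miR-6087 apart from the 5 scarcer ones.

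Together the 7 entries made up 0.0116% of the miRNA signal in parental cells and 0.373% in spheres, a 32-fold difference. Counted in estimated reads the shares were 0.0116% (exact interval 0.0106% to 0.0126%) and 0.370% (0.356% to 0.385%). miR-4792 alone gave 64.2% of the RPKM of the 7 in parental cells and 76.6% in spheres. miR-6087 gave 31.0% and 18.3%. The other 5 entries summed to 148 RPKM in the first and 1035 RPKM in the second library, a ratio of 7, beside 6.63 for miR-4792 and miR-6087 together.

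The order of the levels was the same at the top in both libraries and not resolved below. In both libraries miR-4792 was highest, then miR-6087 and then miR-4449, and the counting intervals of these neighbours did not overlap. Each of the lower neighbours overlapped, in parental cells miR-4449, miR-3195, miR-4516, miR-4492 and miR-663a in falling order, and in spheres miR-4449, miR-4516, miR-3195, miR-663a and miR-4492. Of the 21 pairs of entries, 1 had a difference in log2 fold whose counting interval left out 0. miR-4792 stood at 2.07 times miR-6087 in parental cells and 4.18 times in spheres, a difference in log2 fold of 1.01 (0.71 to 1.32). For the other 20 pairs these reads do not tell the folds apart.

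The genomic places of the entries, which the rule did not use, are those of GENCODE 29 (GRCh38). MIR4792 lies at chr3:24521362-24521435 on the minus strand, in an intron of the non-coding THRB-AS1 on the opposite strand. MIR6087 lies at chrX:109054542-109054590 on the plus strand, between genes. MIR4516 lies at chr16:2133119-2133204 on the plus strand, opposite to an intron of PKD1, the polycystin gene mutated in polycystic kidney disease. MIR663A lies at chr20:26208186-26208278 on the minus strand and overlaps exons of its host transcript MIR663AHG. MIR4492 lies at chr11:118910708-118910787 on the plus strand, opposite to an exon in the untranslated region of BCL9L, a cofactor of beta-catenin. MIR4449 lies at chr4:52712682-52712747 on the plus strand, in an intron of the long non-coding RNA DANCR on the same strand. MIR3195 lies at chr20:62064802-62064885 on the plus strand, opposite to a coding exon of TAF4, a subunit of the transcription factor TFIID.

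Opposite-strand hosts were common among the entries. Of the 7 hairpins, 4 (57.1%) lay within a gene on the opposite strand only (MIR4792, MIR4516, MIR4492 and MIR3195), compared with 6 of 169 other measured hairpins (3.55%). Only 2 of the 7 lay in a gene of the same strand, against 140 of the 169. The groups were not admitted alike, so their shares are not like for like. All 7 entries were placed by name, but another name entered only with a RefSeq mature sequence. Names such as miR-4485, miR-4532 and miR-3687 are therefore absent. Of the entries with such a sequence, MIR4516 and MIR4492 lie on the opposite strand only, and MIR663A and MIR4449 in a gene of the same strand. A transcript start lay within 2000 bp of 4 entries (57.1%) and of 62 of the 169 others (36.7%). The distances were 6 bp for MIR663A, 66 bp for MIR4449, 156 bp for MIR4492, 478 bp for MIR3195, 2736 bp for MIR4516, 21818 bp for MIR4792 and 287247 bp for MIR6087. For the folds of other hairpins, only the first listed measured name of each hairpin was taken, and a second measured arm was left out. Among the other hairpins, those within 2000 bp of a start had a median log2 fold of 0.00 and those farther away 0.15. The 6 other hairpins on the opposite strand had a median of 0.91, and 3 of them were at least 2-fold higher. Over all the others, 10 of the 62 near a start (16.1%) and 28 of the 107 farther away (26.2%) were. Of the 3, miR-4284 (2.43 rescaled RPKM in parental cells) counted as measured only through spheres. Nothing is read from so few hairpins.

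None of the 7 entries had a name for an opposite arm in the deposited tables. Of the 262 other measured names, 207 (79%) had one listed and 200 (76.3%) had one above 0. The lack is not particular to the 7. None was listed either for miR-1290, miR-1246, miR-4485, miR-4532, miR-3648, miR-3687, miR-3196 or miR-4454, other entries of GC-rich or repeat-like sequence. The same held for miR-210, miR-203a, miR-107 and miR-375, which are not such entries. Arms were matched by name, leaving out the locus number that some names carry. The result thus follows how the catalogue names its entries, and reads of an unlisted arm could not be seen. Of the 55 other names with no second arm listed, 21 (38.2%) were at least 2-fold higher in spheres, and of the 207 names with one, 34 (16.4%). Their median log2 folds were 0.47 and -0.05. Of these higher names, 13 of the 21 and 9 of the 34 were below 10 rescaled RPKM in parental cells and counted as measured only through spheres, so the 2 shares are not read as a difference.

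**Figure D3:**
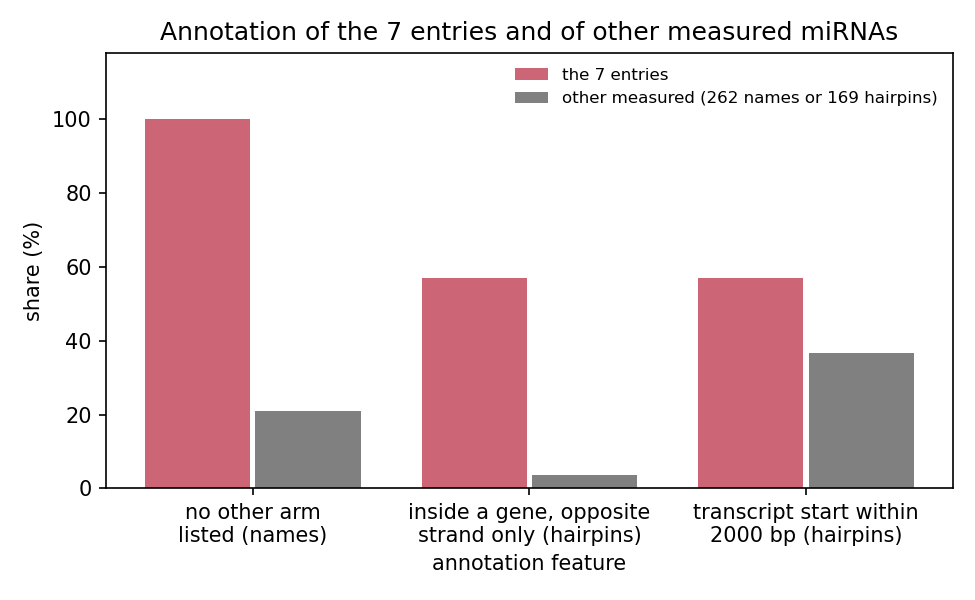
Share (%, bars from 0) of the 7 entries and of other measured miRNAs with no opposite arm listed, with a hairpin inside a gene on the opposite strand only, and with a transcript start within 2000 bp. The entries are at 100%, 57.1% and 57.1%, and the other names or hairpins at 21%, 3.55% and 36.7%. The share with no opposite arm follows catalogue names and not reads. For the hairpin shares, only the other miRNAs were limited to names with a RefSeq mature sequence.

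At a GC content of 65% or more, other measured miRNAs with a RefSeq sequence did not have a higher median fold in spheres. Names with no sequence, miR-4532 and miR-3687 among them, could not be placed. Among the 213 other measured miRNAs with a sequence, the median log2 fold was 0.15 at a GC content under 50% (114 names), -0.10 from 50% to under 65% (85 names) and -1.03 at 65% or more (14 names). At the upper end 3 of the 14 were past 2-fold upwards and 8 past it downwards. Only 2 of the 14 lay beyond 75%, as all the entries with a sequence do. The upward ones, miR-3648 (3.08 in log2), miR-3196 (2.08) and miR-4454 (1.92), had 12.7, 16.2 and 24.7 sphere reads. The downward ones included both arms of miR-671, miR-423-3p (-1.23) and miR-3615 (-3.24, on 1 sphere read). Across the 213 miRNAs the log2 fold had a Pearson r of -0.09 and a Spearman rho of -0.11 with GC content, which describes miRNAs of the same pair of libraries and not replicates.

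The 2 measured miRNAs beyond a GC content of 75%, miR-3648 and miR-3196, were both higher, a limit chosen after the values were seen. Without the filter on level, 81 names other than the 4 entries had such a GC content. Of these, 43 were at 0 in both libraries, 14 had a higher and 24 a lower share of miRNA in spheres. Their summed rescaled RPKM went from 42.6 to 81.4, a ratio of 1.91, and 4 of them had at least 3 reads in spheres. The sphere library held fewer miRNA reads, an estimated 683674 against 4550662, and the part of this in the zeros was not tested.

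**Figure D4:**
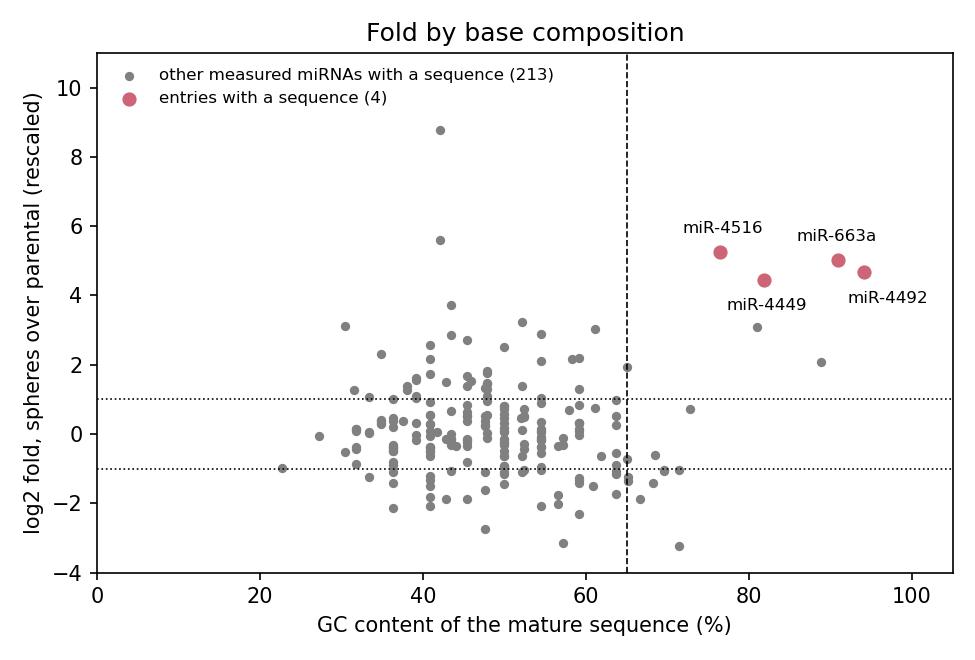
Log2 fold of spheres over parental cells (rescaled RPKM) against the GC content of the mature sequence (%) for 213 other measured miRNAs and the 4 entries with a RefSeq sequence, with dotted lines at 2-fold and a dashed line at 65%. The 4 entries lie at the upper right, while 8 of the 14 other miRNAs at 65% or more lie below the lower dotted line.

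The names found with the seed of an entry were listed at 0 in spheres. They are shown because the same seed would give the same predicted targets, again with bases 2 to 8 in capitals.
miR-4434: aGGAGAAGuaaaguagaa
miR-5703: aGGAGAAGucgggaaggu
miR-4498: uGGGCUGGcagggcaagugcug
miR-762: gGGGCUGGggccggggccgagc
miR-5001-5p: aGGGCUGGacucagcggcggagcu
The seed of miR-4516 occurred in miR-4434 and miR-5703, and both were listed at 0 in both libraries. The seed of miR-4492 occurred in miR-4498, miR-762 and miR-5001-5p. All 3 were listed at 0 in spheres, and in parental cells they had 2.92, 0 and 26.8 RPKM. A value of 0 in spheres allows up to 3 reads, or 24.2 RPKM on 22 nt. Among the 1714 of 2038 names with a RefSeq sequence, no other had the seed of miR-663a or miR-4449. miR-3187-3p, with 11 bases in common with miR-4449, had an RPKM of 19.3 (parental) and 0 (spheres), and miR-4783-5p, with 11 bases complementary to miR-4492, was at 0 in both. miR-663b, the namesake of miR-663a, had an RPKM of 2.71 (parental) and 14.1 (spheres), on 0.46 and 1.75 reads.

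The mature sequences were also compared with annotated transcripts over runs of 16 bases. In the transcripts of GENCODE 29, 3 of the 4 mature sequences had such a run in another gene in the same orientation, as did 121 of the 213 other measured sequences (56.8%). miR-4492 shared runs with SLC6A18 and XYLT2, miR-4449 with ITFG1 and TNFRSF25, and miR-663a with MAP3K21 and its host MIR663AHG. For miR-4516 none was found. In the opposite orientation miR-4492, miR-663a and miR-4449 had such a run, as did 74 of the 213 others (34.7%). Hits of the others included family members and host genes, such as MIR30A for miR-30e-3p and MIR17HG for miR-17-3p. The search was limited to these annotated transcripts, and the origin of the reads was not tested.

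Other catalogue entries of GC-rich or repeat-like sequence were examined as well. Of the 37 such names found in the tables, 14 were at 0 in both libraries and 8 were measured. All 8 were at least 2-fold higher in spheres, where 62 of all 269 measured miRNAs were (23%). Their median log2 fold was 3.10. However, 7 of the 8 reached the level of measurement only through spheres and had to be higher, so nothing is read from this count. As deposited, 5 of the 8 were at least 2-fold higher, where 17 of the 269 were (6.32%). miR-1290 (8.79 in log2, 8.28 as deposited), miR-1246 (5.59 and 4.11), which resembles U2 small nuclear RNA, and miR-4485 (3.91 and 2.0), which resembles mitochondrial ribosomal RNA, had the highest folds. miR-4532 had 3.12 and 1.11 and miR-3648 3.08 and 1.11. miR-3687 (2.48 and 0.38), miR-3196 (2.08 and -0.11) and miR-4454 (1.92 and -0.29) lay within 2-fold as deposited.

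The other high-numbered names were counted as well. Of 25 other measured names numbered 3000 or above, 14 (56.0%) were at least 2-fold higher. Of 222 names with lower numbers 41 were (18.5%), with the let-7 names in neither group. Of these higher names, 11 of the 14 and 11 of the 41 were below 10 rescaled RPKM in parental cells and had to be higher to count as measured, so no association is read from the shares. The medians were 1.10 and -0.02 in log2, and -1.11 and -2.29 as deposited. Among other miRNAs whose rescaled RPKM averaged 100 or more, the 5 with a log2 fold nearest to the median of the 7 were miR-203a (3.70), miR-181c-5p (2.71), miR-146b-5p (2.85), miR-24-3p (2.87) and miR-210 (2.91). Likeness here is the difference in log2 fold over 2 libraries, and it was 0.99 for miR-203a and 1.78 to 1.98 for the other 4. Of these 5, only miR-203a was at least 2-fold higher as deposited (1.43 in log2).

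Epithelial markers were present in both libraries. The 5 epithelial miRNAs (miR-205-5p, miR-203a, miR-31-5p, miR-200c-3p and miR-141-3p) summed to 37310 (parental) and 83300 (spheres) after rescaling. miR-203a (2698 and 35056) and miR-141-3p (2710 and 12264) made up most of the difference, and miR-205-5p was lower in spheres (21938 and 19458). As deposited, miR-203a was higher in spheres (1.43 in log2). On that scale miR-141-3p (-0.09), miR-31-5p (-1.53), miR-200c-3p (-1.61) and miR-205-5p (-2.44) were lower. The rescaled sums of the other markers were 745 and 238 for 5 blood miRNAs, and 348 and 429 for 2 neural ones. They were 38.3 and 68.9 for the endothelial miR-126-3p, 26.9 and 69.1 for 3 mesenchymal ones and 1.98 and 17 for 3 muscle ones. miR-486-5p held 741 and 207 of the blood sums. After rescaling, miR-142-5p (3.25 and 12.3), miR-150-5p (0 and 13.2) and miR-451a (0.44 and 5.86) were higher in spheres, and miR-223-3p (0.084 and 0) was not. Taken as 22 nt long, miR-142-5p had 14.8 and 8.37 reads, miR-150-5p 0 and 9, and miR-451a 2 and 4. As deposited, miR-142-5p (-0.35 in log2) and miR-486-5p (-4.11) were lower in spheres and miR-451a (1.43) was higher. On that scale miR-150-5p had 0 RPKM (parental) and 72.7 (spheres), and miR-223-3p had 2.24 and 0. The liver miRNA miR-122-5p, the muscle miRNA miR-206 and the neural miR-124-3p were at 0 in both. As deposited, the neural miR-9-5p (-1.97 in log2), miR-126-3p (-1.42) and the mesenchymal miR-143-3p (-0.91) and miR-199a-5p (-1.79) were lower in spheres. The muscle miR-133a was higher (0.62). The mesenchymal miR-145-5p and the muscle miR-1 were at 0 in parental cells and at 7.72 and 12.1 RPKM in spheres. The part of other cell types in the levels of the 7 entries was not tested. In such libraries fewer cells that hold an RNA and less of it per cell cannot be told apart.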

How the data were processed

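Small RNA of 1 parental and 1 sphere library was measured, with 1 µg of total RNA per TruSeq library, per the labels' protocols. The authors deposited RPKM values, per the file headers, and no counts. The submitters' processing notes name hg19. Aligner, counting and miRNA release were not stated there. RPKM summed to 26530004 in parental cells and 5509071 in spheres.

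Each column was rescaled to 1000000. Folds used a prior of 0.5, and the filter was a mean of 10. Reads were estimated as RPKM times mature length, divided by the value of 1 read on 22 nt. Fold intervals are exact (Clopper-Pearson) intervals of read ratios, and level intervals are exact Poisson, all at 95%. Differences in log2 fold between entries have normal intervals. RefSeq sequences matched 1714 of 2038 names and 217 of 269 measured ones (80.7%). Hairpins were folded with RNAfold 2.7.2. Tables were made with pandas 2.3.3 and scipy 1.17.1. The steps were tested on simulated data. With 1 library per group no test between groups was made.

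The members and lists were chosen with earlier results of these data known. Named miRNAs were the 7 entries, measured related entries, the 5 with the nearest folds, and the most abundant name of each library, with measured names sharing a seed or 10 bases with an entry (there were none). miR-663b, the unmeasured names sharing sequence and those named for GC content were chosen after their values were seen. Coordinates come from GENCODE 29, as the files hold names only.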

Additional observations from a re-analysis of the deposited data

How the results depend on the processing

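The rule chose the entries for this ratio, so their counts here are a description and no support. All 7 entries were at least 2-fold higher in spheres under each of the 4 other scalings and with a prior of 5. The same held without the filter, and when the whole counting interval had to lie beyond 2-fold. Where the rescaled RPKM had to average 100, 2 of them were left, miR-4792 and miR-6087, since the others are too scarce. Their median log2 fold moved from 4.69 to 2.99 as deposited and to 3.15 with a prior of 5, and was 4.37 to 4.59 with the upper quartile, the median of ratios and the total without the 5 most abundant names. Related entries at least 2-fold higher numbered 8, then 5 as deposited, 13 without the filter and 1 at a mean of at least 100. Over all measured names the count was 62 of 269, then 17 as deposited and 45 with the whole counting interval. It was 55 with the median of ratios, 51 with the upper quartile and 59 with a prior of 5. Without the 5 most abundant names in the total it was 56. It was 193 without the filter (2038 names) and 23 at a mean of at least 100. The median fold of GC-rich other miRNAs was -1.13 at a mean of at least 100 (4 names), and -0.01 for names of at least 40% G (18 names). No paired analysis was possible because each group holds a single library, and for the same reason no replicate could be left out. Depth limits the 3 entries with fewer than 3 parental reads most.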
